A study of Mus musculus with 281 samples.

Results

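The calcium pumps, exchangers and buffers described here are 10 genes, chosen by name from the 47752 genes of the table of estimated counts: the plasma membrane pumps Atp2b1, Atp2b2 and Atp2b4, the secretory pathway pumps Atp2c1 and Atp2c2, the endoplasmic reticulum pump Atp2a2, the exchangers Slc8a1 and Slc24a3, and the calcium-binding proteins Calb1 and S100g. Each was followed across single cells of the mouse stria vascularis (SV), the epithelium of the lateral cochlear wall that makes endolymph, and across genotypes of Slc26a4, the gene of the anion exchanger pendrin. Cells were picked one at a time with a pulled glass micropipette and profiled with SMART-Seq2, a method that amplifies polyadenylated mRNA over its whole length without molecular identifiers. Cells came from male 129S6 mice of 3 genotypes: Slc26a4+/+ (WT) aged P22 to P42, Slc26a4+/- aged P26 to P33 (40 cells) and Slc26a4-/- aged P24 to P44 (69 cells). No further allele or treatment was named, and the Slc26a4-/- genotype is that of the whole animal rather than of 1 cell type.

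A calcium ion leaves the cytosol by 3 pump families. Plasma membrane Ca2+-ATPases (the Atp2b genes) push it out of the cell, sarco/endoplasmic reticulum Ca2+-ATPases (the Atp2a genes) load it into the endoplasmic reticulum, and secretory pathway Ca2+-ATPases (the Atp2c genes) carry calcium and manganese into the Golgi. Sodium-driven exchangers such as the Slc8a1 product move calcium quickly but with low affinity, and the binding proteins calbindin-D28k (Calb1) and calbindin-D9k (S100g) hold it in the cytosol, the latter ferrying it across absorbing epithelia. The endolymph, which marginal cells (MCs) face, is unusual among extracellular fluids in being poor in calcium, and Atp2b2 is the pump known for clearing calcium from hair cell stereocilia.

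The labels named no mouse, so each genotype counted as 1 sample and no value below carries a p-value. Cells are not replicates of a genotype. The spread given instead is that between cells and between the 4 run dates that the profile names carry, December 2017, June 2018, January 2019 and July 2019, which held 52, 26, 75 and 19 WT cells. A further number in the profile names was read here as the day of collection, which no label states, and days below are days in this sense. Values are CPM, the estimated counts of a gene per 1000000 estimated counts of the cell. A cell was said to hold a gene at or above 10 CPM, and a difference between means of CPM was called when it passed 2-fold with 1 CPM added to both. Depth ran from 1848 to 7932729 estimated counts per cell with a median of 1312950, and 20 cells, all WT, had under 100000. Intervals on shares of cells are exact (Clopper-Pearson, 95%) and cover counting error only, and fewer transcripts cannot be told apart from a loss of transcripts during amplification.

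Cells were clustered without the 10 members, the wider calcium list and Slc26a4. Clusters carried the markers of intermediate cells (IMCs), spindle cells (SCs), root cells (RCs) and MCs and are called IMC-like, SC-like, RC-like and MC-like, with 72, 23, 15 and 14 WT cells. SCs and RCs are the cells that make pendrin, and Slc26a4 RNA averaged 911.6 CPM (SC-like) and 1120 CPM (RC-like) there, against 1.40 CPM in IMC-like and 0.33 CPM in MC-like cells. Another 2 clusters were left unnamed. The Crhbp cluster (11 WT cells) was led by Crhbp, Slc26a7 and Vmo1, held Slc26a4 at 334.3 CPM, and summed to a median of 10780 CPM over the 8 MC markers against 57730 CPM in MC-like cells. The Slc4a1 cluster (37 WT cells) was led by genes of red and white blood cell lineages. RNA of the 12 IMC markers was found in every cluster, with median sums of 510.4 to 1344 CPM in the SC-like, RC-like, MC-like and Crhbp clusters beside 53420 CPM in IMC-like cells.

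Of the 10 members, 6 had a mean over the 4 cell types of at least 5 CPM, and all 6 were pumps. The other 4, both exchangers and both binding proteins, stayed below it. In 4 pumps the highest cell type was more than 2-fold above the next, in a background where 31.5% of the 11002 genes above the same minimum were so called. Their highest types were not the same: MC-like for Atp2b1 and Atp2c2, SC-like for Atp2b4 and RC-like for Atp2b2. The median log2 ratio of highest to next type was 1.88 over the 6 pumps and 0.61 over all genes. This is a description of 6 genes, of which Atp2b2 passed the minimum through RC-like cells alone.

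**Figure D1:**
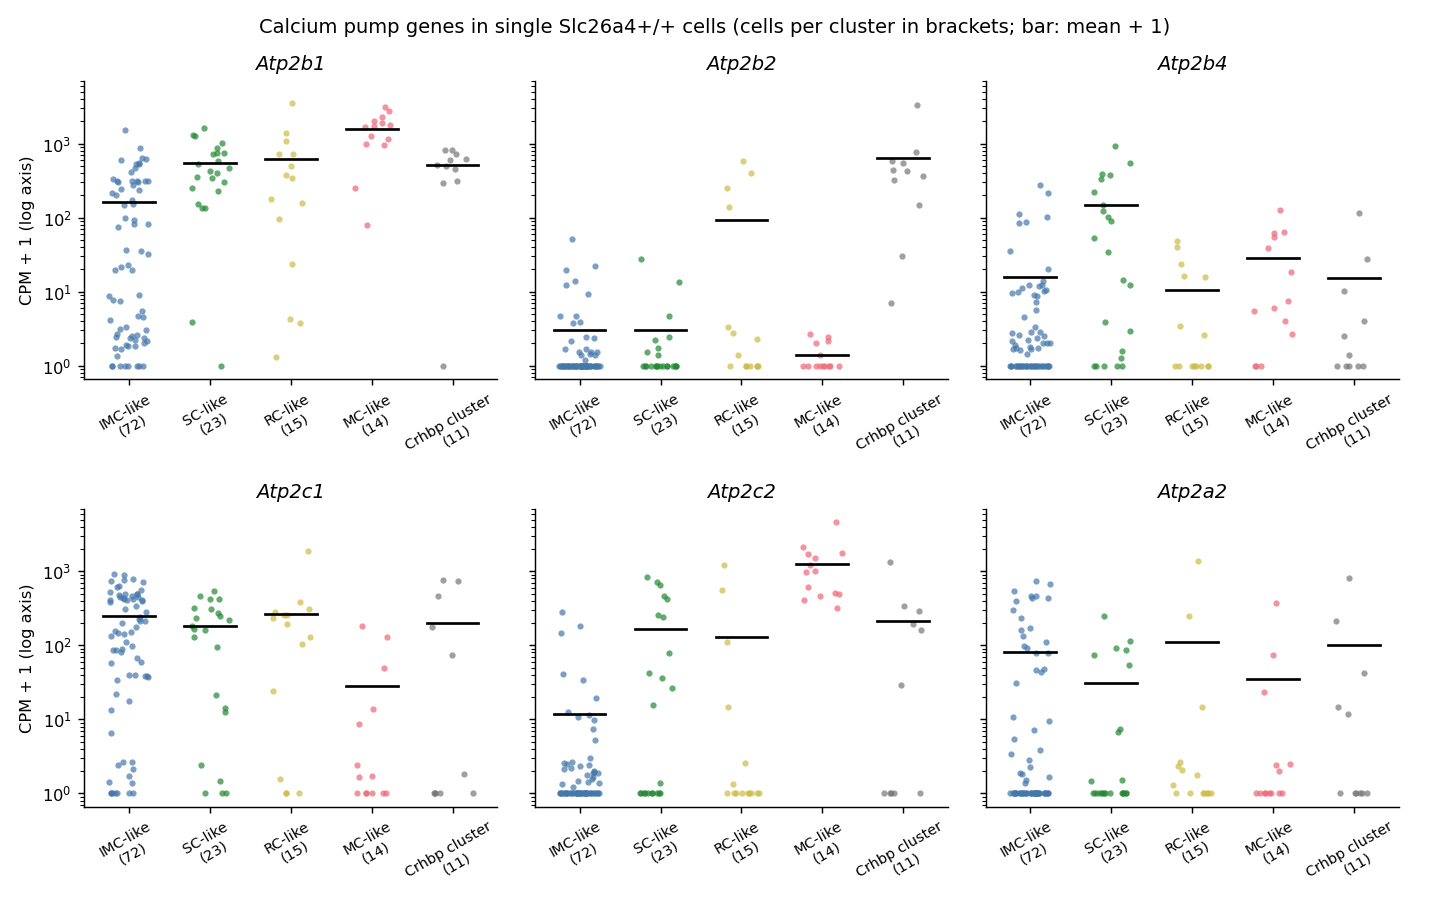
Each point is 1 WT cell, with CPM + 1 on a log axis, by cluster, for the 6 pump genes, and the bar is the mean. MC-like cells sit at the top of the Atp2b1 and Atp2c2 panels (means 1569 and 1266 CPM) and low in the Atp2c1 panel (27.1 CPM), and Crhbp-cluster cells stand above the rest for Atp2b2 (629.6 CPM).

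Atp2b1, which encodes the widely made plasma membrane pump PMCA1, was held by more cells than any other member. In MC-like cells its levels ran from 79.2 to 3098 CPM with a median of 1706 CPM, and 14 of 14 cells held it. In RC-like cells they ran from 0.29 to 3522 CPM (median 337 CPM), and in SC-like cells from 0 to 1623 CPM (median 419.8 CPM). IMC-like cells were lowest, from 0 to 1521 CPM with a median of 19.6 CPM, and 38 of 72 held the gene. The cells of the 4 types overlapped, but a randomly drawn MC-like cell was above a cell of another named type with a frequency of 0.908. The mean of 1569 CPM in MC-like cells was 2.57-fold above that of 609.1 CPM in RC-like cells, which together with the SC-like mean of 547.3 CPM and the Crhbp-cluster mean of 512.8 CPM formed a middle tier whose means lay within the spread of their cells (SD 910.6 CPM in RC-like and 436.3 CPM in SC-like cells).

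The rank of MC-like cells for Atp2b1 was seen on each run date where it could be read, and its size was not fixed. The log2 ratio of MC-like to RC-like cells was 1.19 in December 2017 and 2.22 in January 2019 (SD 0.73). MC-like cells were above every other named type present on 7 of 8 days. Days counted here and below held cells of the highest type and of another named type, not always of all types. MC-like means were 616.5 CPM in December 2017 (2 cells), 1049 CPM in June 2018 (4 cells) and 2067 CPM in January 2019 (8 cells). No WT MC-like cell came from July 2019, when RC-like cells reached their highest mean of 1204 CPM. The log2 ratio to the next type, 1.36 over all dates, dropped below the 2-fold line without January 2019 (0.43), with scaling by TMM factors (0.60) and with cell types taken from the marker score of each cell (0.53). MC-like stayed the highest type in all of these. The low level of IMC-like cells, 3.40-fold below the SC-like mean, had the same direction on 4 of 4 run dates, and 6.94% of genes were lowest in IMC-like cells by over 2-fold.

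Atp2b1 lies on chromosome 10 at positions 98914406 to 99026143 (GRCm38, plus strand), and a single transcript of it was quantified, a coding one of 1220 residues. The 250 bases before the RNA start of this transcript are printed because that was the only start of this member behind the values. They come from the RefSeq table of mouse promoters (GRCm38.p6), chr10:98914902-98915151, plus strand. Capitals mark matches on either strand to GGGCGG, the GC box bound by Sp1-type factors, of which there are 3. A match to it stands in the 250 upstream bases of 32.7% of the 32851 promoters in the table. The window is 80.8% G and C and holds no TATAAA, which 12.4% of promoters hold.
Atp2b1: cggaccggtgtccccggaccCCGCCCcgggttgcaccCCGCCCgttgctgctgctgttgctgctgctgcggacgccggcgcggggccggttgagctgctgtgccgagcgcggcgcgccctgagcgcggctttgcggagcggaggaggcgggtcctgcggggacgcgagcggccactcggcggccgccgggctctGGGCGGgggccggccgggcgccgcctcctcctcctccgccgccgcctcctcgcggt

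Atp2b2, which encodes the fast pump PMCA2, was at or near 0 in most SV cells. In IMC-like cells it averaged 1.99 CPM and in SC-like cells 2.04 CPM. None of the 14 MC-like cells held it (interval up to 23.2%), and their highest value was 1.69 CPM. In RC-like cells 4 of 15 held it (26.7%, interval 7.79 to 55.1%), at 136.9, 248.2, 395.2 and 582.3 CPM, while the median was 0.39 CPM. These 4 cells came from 3 run dates, and the RC-like mean of 91.2 CPM was 30.4-fold above the next type (10% of genes were highest in RC-like cells by over 2-fold). The log2 ratios were 5.50, 4.08 and 6.29 on the run dates that allowed one, of which those of December 2017 and January 2019 each rested on 1 cell. The January 2019 cell, at 248.2 CPM, had an MC marker sum of 27790 CPM beside an RC marker sum of 16580 CPM. The part of MC RNA in its value was not tested. Most RC-like cells did not hold Atp2b2: RC-like cells were above all other named types present on 5 of 11 days. A random RC-like cell was above a cell of another named type with a frequency of 0.645. When cell types were taken from the marker score of each cell, MC-like cells became the highest type (log2 ratio of RC-like to next of -0.999), since most Crhbp-cluster cells score highest for the MC markers.

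The Crhbp cluster held more Atp2b2 than any named type. Its 11 WT cells ran from 6.09 to 3289 CPM with a median of 430.2 CPM, 10 of 11 held the gene (90.9%, interval 58.7 to 99.8%). On each of the 3 run dates with cells of this cluster its mean was above that of every named type, with 1364 CPM in June 2018 and 413.9 CPM in January 2019 as the higher of these. Cells of the other genotypes in this cluster were few, with means of 163.9 CPM in 4 Slc26a4+/- and 41.3 CPM in 2 Slc26a4-/- cells. Hair cell markers were near 0 in these cells: of the 8 on the list 6 had no count in the 10 cells that held Atp2b2, and the sum over the list was 0 to 23.1 CPM. In the 4 RC-like cells with Atp2b2 the sum was 0 to 30.2 CPM. In the Slc4a1 cluster, where Atp2b2 averaged 41.6 CPM, 1 of the cells that held it had a hair cell marker sum of 14470 CPM, and the part of such RNA in that mean was not tested.

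Not all Atp2b2 RNA was of a kind that encodes a pump. In the Crhbp cluster 45.1% of its estimated counts were assigned to full-length coding transcripts, chiefly one of 1243 residues (31.4%), and 49.4% to a transcript with a retained intron. In RC-like cells the full-length share was 19.5%, with 52.2% in the retained-intron transcript and 24.6% in one annotated as a target of nonsense-mediated decay. In SC-like cells 83.1% of the few counts were in the retained-intron transcript. Atp2b2 lies on chromosome 6 at 113743831 to 114042613 (minus strand) and has 3 promoters in the RefSeq table. The one at the RNA start of the main coding transcript of the Crhbp cluster is printed to set it beside that of Atp2b1 (chr6:113934682-113934931, minus strand). At 52% G and C it holds no GC box, no TATAAA and no match to the Esrrb element described for S100g, so it has no capitals.
Atp2b2: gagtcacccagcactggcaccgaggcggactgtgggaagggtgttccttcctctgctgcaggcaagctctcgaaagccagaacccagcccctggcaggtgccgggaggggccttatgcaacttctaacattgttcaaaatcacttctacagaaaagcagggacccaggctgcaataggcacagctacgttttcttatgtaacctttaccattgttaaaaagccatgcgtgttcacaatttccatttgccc

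Atp2b4, which encodes PMCA4, was highest in SC-like cells. There 14 of 23 cells held it (60.9%, interval 38.5 to 80.3%), with levels from 0 to 929.6 CPM and a median of 33.7 CPM. MC-like cells ran from 0 to 125.8 CPM (mean 27.1 CPM, 6 of 14 held it), IMC-like cells from 0 to 276.7 CPM (mean 14.8 CPM) and RC-like cells from 0 to 47.3 CPM (mean 9.47 CPM). The groups overlapped, since 9 SC-like cells were below 10 CPM, yet the 929.6 CPM cell was above any cell of the other types. The SC-like mean of 146.1 CPM was 5.24-fold above that of MC-like cells, in the same direction on 3 of 3 run dates (log2 ratios 3.69, 4.36 and 1.18). SC-like cells were above all other named types present on 8 of 12 days, and a random SC-like cell was above a cell of another named type with a frequency of 0.708. Of all genes 7.83% were highest in SC-like cells by over 2-fold.

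In SC-like cells 95.6% of Atp2b4 counts were in full-length coding transcripts, with 60.4% in one of 1172 residues and 30.3% in one of 1205 residues. The SC-like cells that held Atp2b4 had a median endothelial marker sum of 5.13 CPM and a median erythroid sum of 35.1 CPM, against 10.2 and 6.04 CPM in those that did not. Outside the named types the Slc4a1 cluster averaged 70.4 CPM, and the 10 of its cells that held Atp2b4 had a median erythroid marker sum of 23140 CPM. Red blood cells are known to carry PMCA4. The part of blood cell RNA in the Slc4a1-cluster value was not tested.

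The plasma membrane pumps were held in different combinations by cells of at least 100000 counts. Among MC-like cells 8 of 14 held Atp2b1 alone and 6 held Atp2b1 with Atp2b4. Among SC-like cells the pair Atp2b1 and Atp2b4 was the most frequent, in 11 of 21 cells, ahead of Atp2b1 alone in 7. In the Crhbp cluster 8 of 11 cells held Atp2b1 with Atp2b2, 2 held all 3 genes and 1 held none. IMC-like cells were divided between Atp2b1 alone (27 of 68) and none of the 3 (26 of 68). Among RC-like cells 6 of 14 held Atp2b1 alone, 2 held it with Atp2b2, 2 held all 3 and 2 held Atp2b4 alone.

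**Figure D2:**
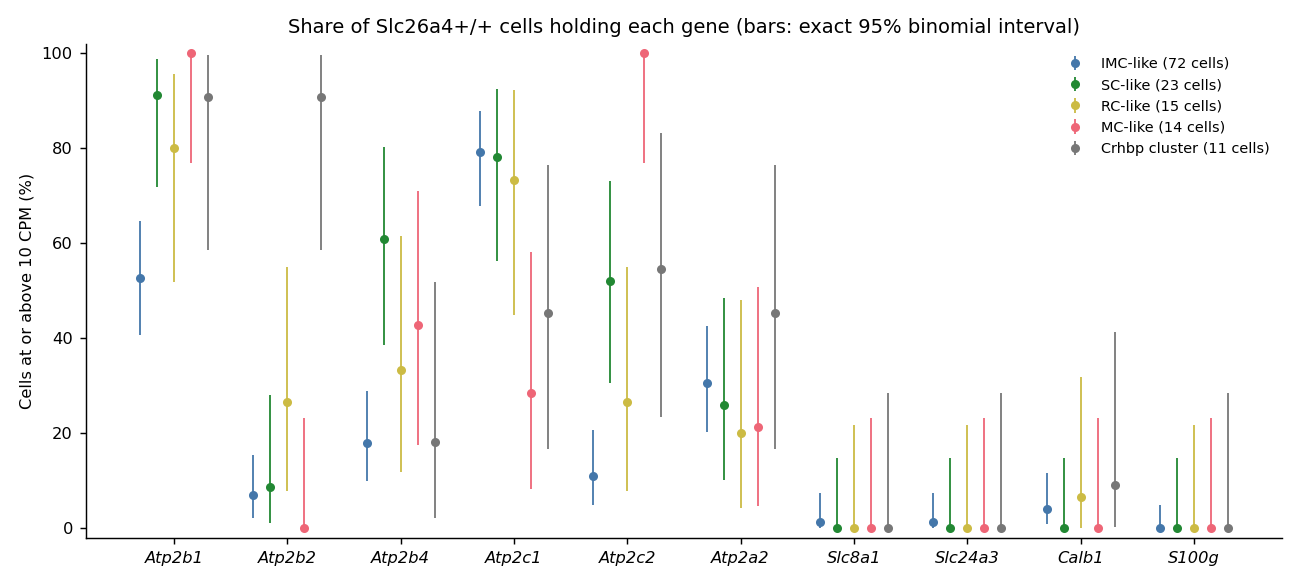
The percentage of WT cells of each cluster at or above 10 CPM is shown for all 10 members, with exact 95% binomial intervals. Atp2c2 reached 100% of MC-like and 11.1% of IMC-like cells, Atp2b2 90.9% of Crhbp-cluster cells and 0% of MC-like cells, and the last 4 genes stayed at or below 9.09% in every cluster shown.

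Atp2c2 showed the sharpest step of the secretory pathway pumps. It encodes SPCA2, a Golgi pump made mainly by secretory and absorptive epithelia. In MC-like cells its levels ran from 320.7 to 4592 CPM with a median of 998.5 CPM, and 14 of 14 cells held it. In SC-like cells 12 of 23 held it, from 0 to 849.1 CPM, and in RC-like cells 4 of 15, from 0 to 1231 CPM. IMC-like cells were lowest, with 8 of 72 cells and a mean of 10.7 CPM. The lowest MC-like cell was thus above the medians of SC-like (14.5 CPM) and RC-like cells (0 CPM), although single cells of both types overlapped with MC-like cells.

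The MC-like mean of 1266 CPM for Atp2c2 was 7.64-fold above the SC-like mean of 164.8 CPM, and 5.94% of genes were highest in MC-like cells by over 2-fold. The log2 ratios within run dates were 1.38, 11.02 and 2.99, the middle one because both SC-like cells of June 2018 were at 0. MC-like cells were above all other named types present on 6 of 8 days, and a random MC-like cell was above a cell of another named type with a frequency of 0.976. RC-like cells that held Atp2c2 had a median MC marker sum of 2809 CPM against 437.9 CPM in those that did not, and SC-like cells 4591 against 2964 CPM. The part of MC RNA in the SC-like and RC-like values was not tested. A single Atp2c2 transcript, of 944 residues, was quantified, and the gene lies on chromosome 8 at 119700009 to 119757717 (plus strand).

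Atp2c1, which encodes the widely made Golgi pump SPCA1, had the opposite low point. Most cells of the other named types held it: 57 of 72 that were IMC-like, 18 of 23 that were SC-like and 11 of 15 that were RC-like, with medians of 147.7, 166.8 and 190.1 CPM. Only 4 of 14 MC-like cells held it (28.6%, interval 8.39 to 58.1%), and their levels ran from 0 to 180.2 CPM with a median of 0.70 CPM. The means of RC-like and IMC-like cells, the highest 2, did not differ beyond the spread of their cells (log2 ratio 0.13, SD 459.2 and 253.8 CPM). The MC-like mean of 27.1 CPM was 6.57-fold below the next lowest, that of SC-like cells at 183.6 CPM. Per length the gap was smaller, with means of 44.1 TPM in MC-like and 89.5 TPM in SC-like cells. Low medians were also found in both unnamed clusters, at 0.81 CPM in the Crhbp cluster (5 of 11 cells held it, up to 772.4 CPM) and 0.36 CPM in the Slc4a1 cluster (12 of 37, up to 289.8 CPM).

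The low Atp2c1 level of MC-like cells had the same direction on 3 of 3 run dates, with log2 differences of 0.53, 5.82 and 2.87. Being lowest in MC-like cells by over 2-fold was frequent, at 16% of all genes. In MC-like cells 49.1% of Atp2c1 counts were in full-length coding transcripts, against 74.7, 82.1 and 72% in IMC-like, SC-like and RC-like cells. The gene lies on chromosome 9 at 105403539 to 105527319 (minus strand) and overlaps Aste1 and Gm19667 on the other strand, so reads from these cannot be told apart where they overlap. Within IMC-like cells the 2 clusters differed in level, with Atp2c1 at 330.8 and 154.7 CPM.

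**Figure D3:**
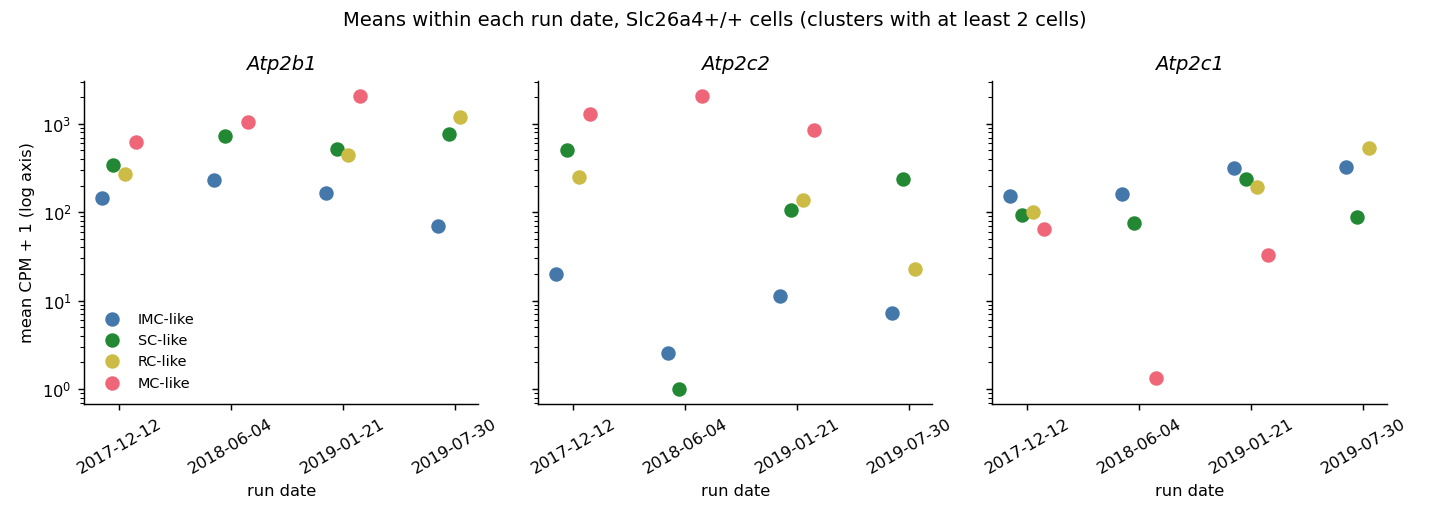
Mean CPM + 1 of WT cells, on a log axis, for Atp2b1, Atp2c2 and Atp2c1 on each of 4 run dates, with 1 point per named cell type of at least 2 cells. MC-like points lie above the others for Atp2b1 and Atp2c2 and below them for Atp2c1 on each of the 3 dates that hold MC-like cells.

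Set side by side per cell, the Golgi pumps were held in opposite combinations by MC-like and IMC-like cells. Of the 14 MC-like cells 10 held Atp2c2 without Atp2c1, 4 held both, and none held Atp2c1 alone. Of 68 IMC-like cells 49 held Atp2c1 without Atp2c2 and 14 held neither. SC-like cells were between these, with both genes in 9 of 21, Atp2c1 alone in 8 and Atp2c2 alone in 3. Among RC-like cells 8 of 14 held Atp2c1 alone, 3 both and 3 neither.

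The genes whose pattern over the WT cells of the 4 named types was most like that of Atp2c2, by Pearson correlation of log2(CPM + 1) among 11308 candidates, were Kcnq1 (r = 0.75), Lrp2 (r = 0.71) and Enpep (r = 0.67). Kcnq1 encodes the potassium channel through which MCs secrete potassium, Lrp2 the endocytic receptor megalin, and Enpep an aminopeptidase. These are correlations across cells that share libraries, depth and cell type, and Kcnq1 and Lrp2 are on the MC marker list. No other pump had a gene with a correlation of 0.6 or more.

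Atp2a2, which encodes the endoplasmic reticulum pump SERCA2, did not separate the cell types. It was held by 22 of 72 IMC-like, 6 of 23 SC-like, 3 of 15 RC-like and 3 of 14 MC-like cells, and the median was 0 CPM in all but RC-like cells (0.29 CPM). The highest mean, 108.9 CPM in RC-like cells, rested on a single cell at 1368 CPM, its ratio to the next type was not called (log2 0.43), and it had that direction on 1 of 3 run dates. Of the 22 IMC-like cells that held the gene, 16 had more of the transcript of 1044 residues than of that of 998 residues, while 0 of the 3 RC-like cells did. The gene lies on chromosome 5 at 122453513 to 122502225 (minus strand).

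The exchangers and binding proteins were nearly absent. Slc8a1, the sodium/calcium exchanger NCX1, had a count in 5 of all cells and 48 counts in all. Slc24a3, the potassium-dependent exchanger NCKX3, had a count in 6 cells, and 5433 of its 5724 counts came from 1 WT cell of the Slc4a1 cluster, in which it reached 12110 CPM beside an IMC marker sum of 26940 CPM and an erythroid sum of 40690 CPM. The next highest was 1 IMC-like cell at 145.7 CPM, where the counts were in a coding transcript of 645 residues. Calb1 had a count in 85 cells, and 8 cells reached 10 CPM, of which the highest (204.4 CPM) was 4 counts in a cell of 19571.

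S100g had no count at all, 0 of the 445750007 estimated counts of all cells, which allows a level of up to 0.00673 CPM over all cells. Within the named types this limit is 0.0309 to 0.153 CPM. S100g lies on chromosome X at 162961992 to 162964599 (minus strand), inside Ctps2 on the other strand, and it is the member best known for hormone-driven calcium absorption in gut and kidney. Its upstream bases are printed as the contrast of a member with no count to Atp2b1: they are 38.4% G and C, the lowest share of the members' entries, and hold no GC box (chrX:162964600-162964849, minus strand, RefSeq, GRCm38.p6). Capitals mark 2 matches, 1 on each strand, to AAGGTCA, the element bound by Esrrb and its relatives, which 4.08% of promoters hold. Esrrb is on the MC marker list. The match is a description of letters and not a site. Other members do not all follow the contrast in G and C. The nearly absent Slc24a3 has entries at 80.8% G and C with 4 GC boxes and at 63.6% with none. Slc8a1 has 1 at 50.4% with none, and Atp2b4, which passed the 5 CPM minimum, has 1 at 45.6% with none.
S100g: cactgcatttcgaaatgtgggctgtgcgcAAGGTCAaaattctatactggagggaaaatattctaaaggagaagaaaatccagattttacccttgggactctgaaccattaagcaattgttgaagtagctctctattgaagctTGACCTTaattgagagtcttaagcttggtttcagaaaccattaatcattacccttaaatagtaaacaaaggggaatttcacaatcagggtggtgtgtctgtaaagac

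Of the 10 members 7 have an entry in the promoter table. Atp2a2, Atp2c2 and Calb1 have none.

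Levels of different genes can be set side by side only per length, as TPM. In MC-like cells Atp2c2 was the highest member at a mean of 496.5 TPM, followed by Atp2b1 at 302.2 TPM, and Atp2c1 stood at 44.1 TPM. In IMC-like cells Atp2c1 was first, ahead of Atp2b1 (31.6 TPM) and Atp2a2 (29.4 TPM), with Atp2c2 at 4.69 TPM. In RC-like cells Atp2c1 (185.4 TPM) and Atp2b1 (113.5 TPM) led, and in the Crhbp cluster Atp2b2 (194.8 TPM) did. These sums are not all of full-length coding transcripts. For Atp2b2 in the Crhbp cluster 105.9 TPM were assigned to the retained-intron transcript, and 66.3 and 12.5 TPM to full-length coding ones. Atp2b1, with its single coding transcript, stood at 94.6 TPM there. For Atp2c1 in RC-like cells 42.5 and 24.6 TPM were in retained-intron transcripts, and 25.4, 20.1 and 15.6 TPM in the main full-length coding ones. In SC-like cells the highest mean was that of Atp2b4 at 293.9 TPM, above Atp2b1 at 99.2 TPM, but its median was 29.3 TPM and 85.9% of the mean was assigned to a transcript of 80 residues, so short that few reads give many TPM.

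The wider calcium list, other genes that move, store or release calcium, held 56 genes. Of these 33 passed the 5 CPM minimum and 9 were called (27.3%), which is near the 31.5% of all genes. The median log2 ratio was 0.46 over the list. By group, 2 of 3 exchangers that passed, 5 of 9 genes of release and store-operated entry, 1 of 5 buffers of the secretory pathway and 1 of 7 genes of mitochondrial uptake were called, and none of the 1 further pump, 2 pump regulators, 4 cytosolic buffers and sensors, and 2 genes of Golgi transport and epithelial entry. Of the 33 that passed, 5 were highest by over 2-fold in MC-like cells, 2 in IMC-like, 2 in SC-like and none in RC-like cells. The matching shares of the 11002 genes above the minimum were 5.94, 7.68, 7.83 and 10%, in the same order of types. Of the MC-like genes, Stim1, Orai1 and Orai2 changed direction between run dates. Their log2 ratios of MC-like to the next type were -7.07, -5.65 and -1.94 in December 2017 and 0.49, 3.45 and 5.55 in June 2018. Itpr2 was higher in MC-like cells on each run date that allowed a ratio.

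The exchangers called as highest in IMC-like cells were of the potassium-dependent family, in genes other than Slc24a3. Slc8b1, which is outside that family, was not called. It averaged 100.4 CPM in IMC-like cells, where 32 of 72 held it, and 125.9 CPM in RC-like cells. Slc24a2, which encodes NCKX2, averaged 307 CPM in IMC-like cells, where 53 of 72 held it, and at most 2.34 CPM in the other named types. Slc24a5, the exchanger of melanosomes, averaged 34.7 CPM in IMC-like cells (16 of 72) and at most 1.73 CPM in the other named types. IMCs are melanocyte-derived pigmented cells. Ryr3, a calcium release channel of the endoplasmic reticulum, averaged 16.9 CPM in IMC-like cells, where 18 of 72 held it. It averaged at most 0.43 CPM in the other named types and was below the 5 CPM minimum over the 4 types. Outside the named types the Slc4a1 cluster averaged 54.1 CPM for Slc24a2, 4.14 CPM for Slc24a5 and 17.5 CPM for Ryr3, the last above the IMC-like mean.

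In MC-like cells the gene of this kind with the broadest hold was Itpr2, an inositol trisphosphate receptor, at 1175 CPM in 13 of 14 cells, with SC-like cells next (log2 ratio 3.51, 11.5-fold). Orai2, a store-operated channel subunit, averaged 59.8 CPM but rested on 2 of 14 cells, and Pln, the inhibitor of SERCA2, averaged 12.5 CPM from 1 cell. The epithelial channel gene Trpv5, the calcium-sensing receptor Casr and the vitamin D enzymes Cyp24a1 and Cyp27b1 were at 0 in the 4 named types.

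**Figure D4:**
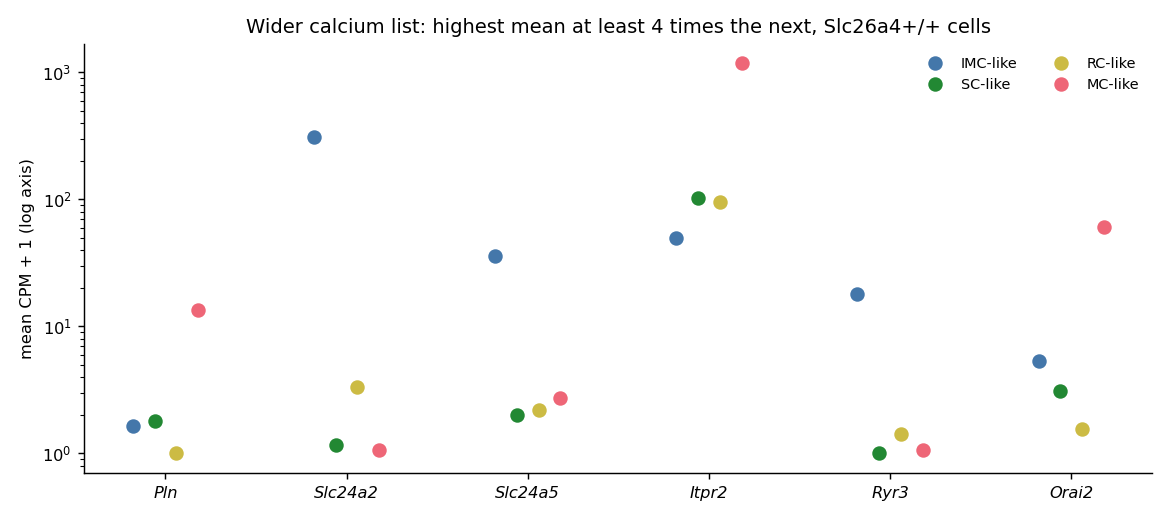
Mean CPM + 1 of WT cells, on a log axis, for the 6 genes of the wider calcium list whose highest cell type was at or above 10 CPM and at least 4 times the next. Among the 4 named types Slc24a2, Slc24a5 and Ryr3 peak in IMC-like cells and Itpr2, Orai2 and Pln in MC-like cells, of which Pln rests on 1 cell. Ryr3 and Pln were below the 5 CPM minimum over these types.

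Genotypes were compared to ask whether the members differ in the SV of mice without pendrin. Slc26a4 RNA itself did not separate the labels: over SC-like and RC-like cells it averaged 994 CPM in WT cells (28 of 38 held it), 553.9 CPM in Slc26a4+/- cells (4 of 8) and 793.4 CPM in the cells labelled Slc26a4-/- (12 of 22). By run date the WT and Slc26a4-/- means were 1749 and 277.8 CPM in June 2018 and 1214 and 1898 CPM in July 2019. Whether the deleted part of the gene lies within what was counted was not tested, so this RNA neither bears out the genotype labels nor speaks against them, and the values below rest on the labels alone. Ratios were taken within these 2 run dates, the only ones with several cells of both genotypes, and averaged.

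In IMC-like cells 5 members passed the 5 CPM minimum, and 2 were higher and 1 lower in the cells labelled Slc26a4-/- by over 2-fold, where 23.7% of 9950 genes were higher and 15.3% lower. The median log2 ratio was 0.32 over the 5 members and 0.10 over all genes. Of these 3, Atp2a2 alone had like ratios on both run dates. Its mean was 78.4 CPM in 12 WT and 175.5 CPM in 27 Slc26a4-/- cells in June 2018, and 73.4 CPM in 7 WT, 87.4 CPM in 23 Slc26a4+/- and 140.6 CPM in 12 Slc26a4-/- cells in July 2019. The log2 ratios were 1.15 and 0.93 (mean 1.04, 2.06-fold). This lies on the 2-fold line, which it missed with a pseudocount of 10 CPM (0.96) and with TMM factors (0.99). The ratio was 1.55 in the larger IMC-like cluster and 0.86 in the smaller, the latter from June 2018 alone. With means of log2 values, which weigh the share of cells that hold the gene, it was 2.82. More cells held the gene in the second group, 14 of 27 against 3 of 12 WT cells on the first date and 12 of 12 against 2 of 7 on the second, where 10 of 23 Slc26a4+/- cells held it. WT and Slc26a4-/- cells overlapped on both dates, and in December 2017 WT IMC-like cells averaged 147.8 CPM, within the range of the Slc26a4-/- means.

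**Figure D5:**
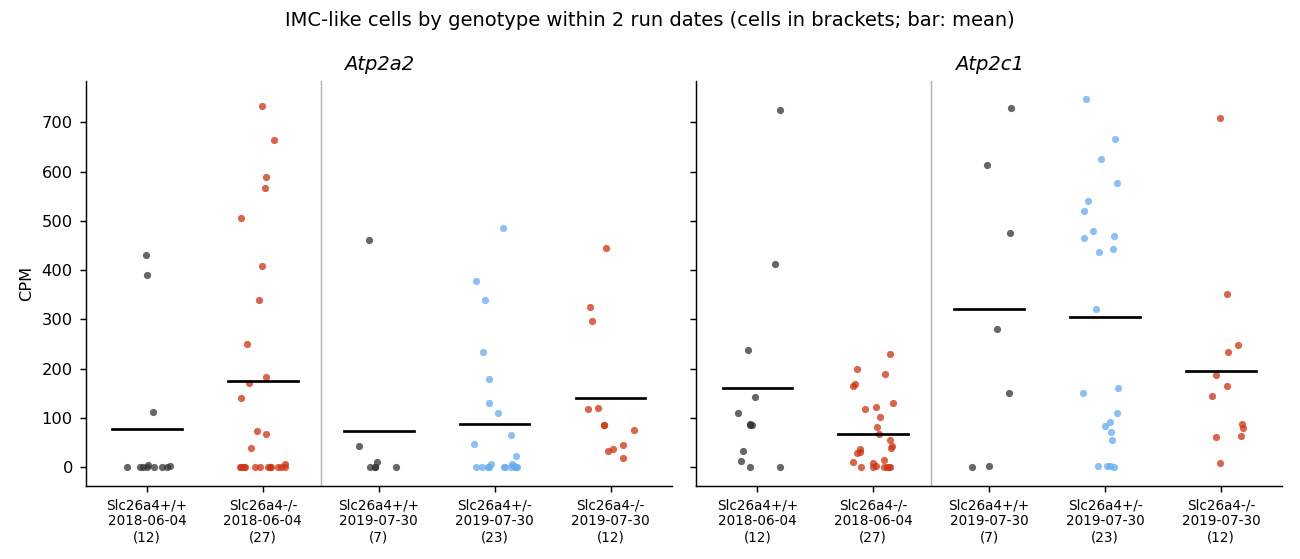
CPM of Atp2a2 and Atp2c1 in single IMC-like cells by genotype on the 2 run dates that hold both WT and Slc26a4-/- cells, with bars at the means. All 12 Slc26a4-/- cells of July 2019 were at or above 19.3 CPM for Atp2a2, while 5 of 7 WT cells were below 10 CPM, and the Atp2c1 means of Slc26a4-/- cells lie below those of WT cells on both dates.

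Cells of the 2 genotypes also differed in depth and in the IMC-like cluster they came from. The median depth was 1310246 counts in WT against 655962 in Slc26a4-/- cells in June 2018, and 1831846 against 3940873 in July 2019, so the Slc26a4-/- cells were the shallower on 1 date and the deeper on the other. Median sums of the IMC markers were 53020 and 70040 CPM on the first date and 53840 and 94200 CPM on the second. Among WT cells Atp2a2 averaged 42.4 CPM in the larger IMC-like cluster and 120.5 CPM in the smaller, and the smaller held 8 of 12 WT and 14 of 27 Slc26a4-/- cells in June 2018 and 0 of 7 and 1 of 12 in July 2019. Beyond the values within each cluster above, the part of these in the Atp2a2 difference was not tested.

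In June 2018, 5 days held IMC-like cells of both genotypes, 11 WT and 17 Slc26a4-/- cells in all. Within these days Atp2a2 was higher in Slc26a4-/- cells on 4 of 5 and equal on 1 (mean log2 ratio 2.34), and Atp2c1 was lower on 4 of 5 (-1.21). Atp2b1 was lower on 5 of 5 (-2.44), a direction it had over all cells of June 2018 and not in July 2019. A day held as few as 1 cell of a genotype, and in this comparison 60.6% of all genes passed 2-fold in either direction. On most of these days the WT and Slc26a4-/- cells also differed in labelled age, so age and genotype cannot be told apart there. In July 2019 no day held both genotypes, so that day and genotype cannot be told apart there.

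Atp2c1 was lower in Slc26a4-/- IMC-like cells on both run dates without passing 2-fold on average. Means were 161.2 and 68.4 CPM in June 2018 and 321.6 and 195.1 CPM in July 2019, with Slc26a4+/- cells at 305.4 CPM, and the log2 ratio was -0.97 (-1.22 and -0.72). It ranged from -0.32 with means of log2 values to -2.02 in the smaller IMC-like cluster (June 2018 alone), and it passed 2-fold with run dates pooled (-1.18). Atp2b1 differed in direction between the dates (log2 -0.61 and 1.24, mean 0.32). The Atp2b2 value (log2 1.77) came from July 2019 and chiefly from 1 Slc26a4-/- cell at 161.5 CPM, and the Atp2b4 value (-1.63) from June 2018 and 1 WT cell at 276.7 CPM. Against WT cells the Slc26a4+/- cells, all of July 2019, gave log2 ratios of 0.25 for Atp2a2, 0.59 for Atp2b1 and -0.07 for Atp2c1, none past 2-fold, where 24.1% of genes were higher and 19.6% lower. Slc26a4-/- cells shared that date, and against Slc26a4+/- cells their ratios were 0.68 for Atp2a2, 0.65 for Atp2b1, -0.64 for Atp2c1 and 3.50 for Atp2b2, the last being the 1 called member (16.3% of genes higher, 17.2% lower).

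In the pendrin cells, SC-like and RC-like cells together, few WT cells stood behind the comparison: 3 in June 2018 (2 SC-like, 1 RC-like) against 15 Slc26a4-/- cells, and 8 in July 2019 (3 SC-like, 5 RC-like) against 7, all RC-like. Of the 6 members that passed, 2 were higher and 2 lower by over 2-fold, where 46.4% of genes were higher and 16.2% lower, and the median log2 ratio was 0.28 against 0.81 over all genes. Atp2b1 was the member lower on both dates without a change of sign in any alternative, with means of 484.9 and 345.3 CPM on the first date and 1043 and 299.3 CPM on the second (log2 -0.49 and -1.80, mean -1.14). It fell short of 2-fold with types from marker scores (-0.87) and with run dates pooled (-0.79). The WT mean of the second date held 1 cell at 3522 CPM. In RC-like cells alone the means of that date were 1204 CPM in 5 WT, 662.6 CPM in 6 Slc26a4+/- and 299.3 CPM in 7 Slc26a4-/- cells, with overlap between all 3 groups. The RC-like cells of June 2018 went the other way, with 1 WT cell at 3.23 CPM and a mean of 120.1 CPM in 7 Slc26a4-/- cells. SC-like means of June 2018 were 725.8 CPM in 2 WT and 542.3 CPM in 8 Slc26a4-/- cells, which overlapped.

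The ratios of the other pumps in the pendrin cells differed between cell types or dates. Atp2b4, the SC-like pump, gave a log2 ratio of -2.28 over both types. In SC-like cells of June 2018 its mean was 629.5 CPM in 2 WT cells, at 329.4 and 929.6 CPM, and 139.9 CPM in 8 Slc26a4-/- cells, which ran from 0 to 535.1 CPM and overlapped with them. In RC-like cells alone, of July 2019, the log2 ratio was 0.78. Atp2c2 gave 7.40 in June 2018, where the 3 WT cells were at 0, and -4.61 in July 2019. Atp2b2 gave 5.86, again against WT cells at 0, and 0.73. Atp2a2 (2.40 and -1.77) and Atp2c1 (0.76 and -0.29) turned between the dates.

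MC-like cells of the other genotypes were too few for a ratio. Atp2b1 ran from 79.2 to 3098 CPM in the 14 WT cells, from 2374 to 2635 CPM in 2 Slc26a4+/- cells and from 231.4 to 1349 CPM in 5 Slc26a4-/- cells. Atp2c2 was held by every one of these cells, at 335.4 and 465 CPM in the Slc26a4+/- cells and from 567.2 to 1824 CPM in the Slc26a4-/- cells. Atp2c1 averaged 27.1, 10.2 and 43.7 CPM and Atp2b2 was at 0 in all 7 cells of the other genotypes, so that the MC-like set of Atp2b1 and Atp2c2 without Atp2b2 was found in each genotype.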

How the data were processed

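Single cells of the SV were sequenced as paired reads. The authors quantified them with kallisto against the mouse transcriptome (mm10, GRCm38), deposited estimated counts and TPM per transcript and cell, and deposited estimated counts per gene made with their own script. Kallisto divides reads among transcripts that share sequence, so shares of transcripts are estimates. A further 17 columns of the gene file matched no sample and were not used. TPM was summed per gene with GENCODE M21, which lacked 1288 of 98492 transcripts (a median of 0.635% of the estimated counts of a cell).

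Gene counts were divided by the total of the cell (CPM). Cells were clustered in Seurat 5.3.0 (2000 variable genes, of which 1988 remained without the listed genes, 10 PCs, resolution 0.8). Naming a cluster took 1 marker list that led in 80% or more of the cells, 3 or more of its markers in most cells, and 0.5 or more of the score of the best cluster, a rule set after the clusters were seen. In 34 cells the 2 highest marker scores lay within 0.25. Cells were picked singly and no doublet caller was run. No 2 cells had identical counts. No mouse was named, so no test was run, and genes were called past 2-fold between mean CPM (1 CPM added as pseudocount), after a minimum mean of 5 CPM over the groups. The calculation of ratios was checked on simulated data.

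Members and lists were chosen with earlier results of these data known. Named are all members, genes of the wider list at or above 10 CPM and at least 4 times the next type, and the 3 genes most like a member where r was at least 0.6. A few further genes of the wider list are named for their values alone. Alternatives were TPM, pseudocounts of 0.1 and 10 CPM, means of log2 values, filters on cells (2500 genes, 3% mitochondrial counts, 100000 counts), types from marker scores, TMM factors of edgeR 4.0.16, no minimum, other genotypes, pooling or leaving out run dates and, added after seeing the data, leaving out cells of close scores, the Crhbp cluster as a type each IMC-like cluster alone and ratios within days.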

Additional observations from a re-analysis of the deposited data

Results flagged for a closer look

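Atp2b2 averaged 629.6 CPM in the unnamed Crhbp cluster of WT cells, outside the 4 named types that the comparison of cell types used, where the highest mean was 91.2 CPM. Slc24a3 averaged 327.3 CPM in the unnamed Slc4a1 cluster against at most 2.03 CPM in a named type, and this mean came from 1 cell at 12110 CPM.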

How the results depend on the processing

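No paired analysis was possible because the replicate numbers of the labels each name 1 cell of 1 genotype. Ratios were taken within run dates and, in an alternative that was added once the data had been seen, within days. The number of members called between cell types, 4, stayed between 3 and 5 in every alternative. For IMC-like cells the 3 called members became 1 with TPM, 1 with means of log2 values, 1 in the smaller IMC-like cluster alone and 0 with a pseudocount of 10 CPM. For pendrin cells the 4 called became 2 with types from marker scores and 1 with run dates pooled. Among ratios past 2-fold, those that changed sign were Atp2b2 between RC-like cells and the next type (-0.999 with types from marker scores, -2.77 with the Crhbp cluster as a type), Atp2b2 between genotypes in the smaller IMC-like cluster (-1.20), Atp2c2 in pendrin cells (-2.61 with marker scores, -0.37 pooled, -2.45 in RC-like cells alone) and Atp2b4 between genotypes in RC-like cells alone (0.78), all log2. Ratios short of 2-fold that took both signs were Atp2a2 (-1.59 to 1.60) and Atp2c1 (-0.79 to 0.78) between RC-like cells and the next type, Atp2b1 in IMC-like cells (-2.44 to 0.54), and Atp2a2 (-2.44 to 1.60) and Atp2c1 (-0.83 to 0.47) in pendrin cells. The cause was not tested. The genotype comparisons are limited by 1 sample a genotype and 3 WT pendrin cells on a run date, and the part of depth in them was not tested.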
